A study of Homo sapiens with 9 samples.

Results

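The genes described here encode the plasminogen activators and the serpins that inhibit them: PLAU (gene ID 5328), PLAT (5327), the urokinase receptor PLAUR (5329) and the inhibitors SERPINE2 (5270) and SERPINB2 (5055). They were taken by symbol from a table of 18430 genes, and all 5 were present. The RNA came from A375 cells, a human melanoma line in established use that carries the activating BRAFV600E mutation, and each of 3 groups had 3 libraries. Controls were untreated cells in normal culture, harvested at the same time as the treated cells. Vemurafenib, an inhibitor of mutant BRAF, was given at 10 µM for 3 days, and cisplatin, a platinum compound that crosslinks DNA, at 2 µM for 1 day. Treated cells went back to medium without drug and were harvested on day 7, so their values describe cells after withdrawal. Dose, exposure and time without drug differ between the drugs and cannot be told apart from the drug itself. Whether replicates came from separate cultures is not in the labels, and each p-value reflects only the spread among these libraries, which may be technical.

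Plasminogen is an inactive protease precursor in tissue fluid, and urokinase (from PLAU) or tissue-type activator (from PLAT) cuts it to plasmin. Urokinase does so at the cell surface, bound to its receptor, and plasmin degrades fibrin and matrix proteins and releases growth factors. Serpins stop the activators by binding them irreversibly: protease nexin-1 (from SERPINE2) blocks urokinase, tissue-type activator, thrombin and plasmin, and PAI-2 (from SERPINB2) blocks both activators. In melanoma the system is known for its part in invasion, and PLAT is commonly expressed.

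Library totals lay between 14481020 and 16038475 estimated counts. The library labelled vemurafenib replicate 1 stood apart. Its deviation from the mean of the other vemurafenib libraries followed gene length with a Spearman correlation of -0.59 across 13989 genes. The same measure gave 0.51 and 0.43 in those other libraries, whose reference includes replicate 1, and -0.16 to 0.17 elsewhere. Without vemurafenib replicate 1, the vemurafenib against control differences of PLAUR, PLAT, SERPINE2 and SERPINB2 were -1.64, 0.58, -2.10 and -5.20 on the log2 scale, all past the threshold. Of the melanoma markers, SOX10 was at 730 ± 34.4 TPM, MIA at 721 ± 31.0 and S100A1 at 718 ± 62.8 in controls (SD, n = 3), while the pigment genes TYR, MLANA, TYRP1 and DCT were at 0.0633, 0.267, 0.317 and 0.0433 TPM. The blood cell markers PTPRC, CD3E and HBB and the epithelial marker CDH1 had no read in controls, while CD68 was at 112 ± 21.8 TPM and the keratins KRT18 and KRT8 at 385 ± 24.9 and 26.8 ± 3.18 TPM.

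Per gene length, the 5 genes spanned a wide range, here given as TPM, a share of all transcripts that corrects for length and depth. In controls SERPINE2 was highest at 7103 ± 728 TPM, followed by PLAUR at 198 ± 3.33, PLAT at 126 ± 17.4, SERPINB2 at 20.7 ± 5.66 and PLAU at 0.31 ± 0.165 (SD, n = 3), and no neighbours in this order overlapped between libraries. After either drug PLAT stood above PLAUR, and their libraries did not overlap there either. SERPINB2 stayed above PLAU in every library.

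**Figure D1:**
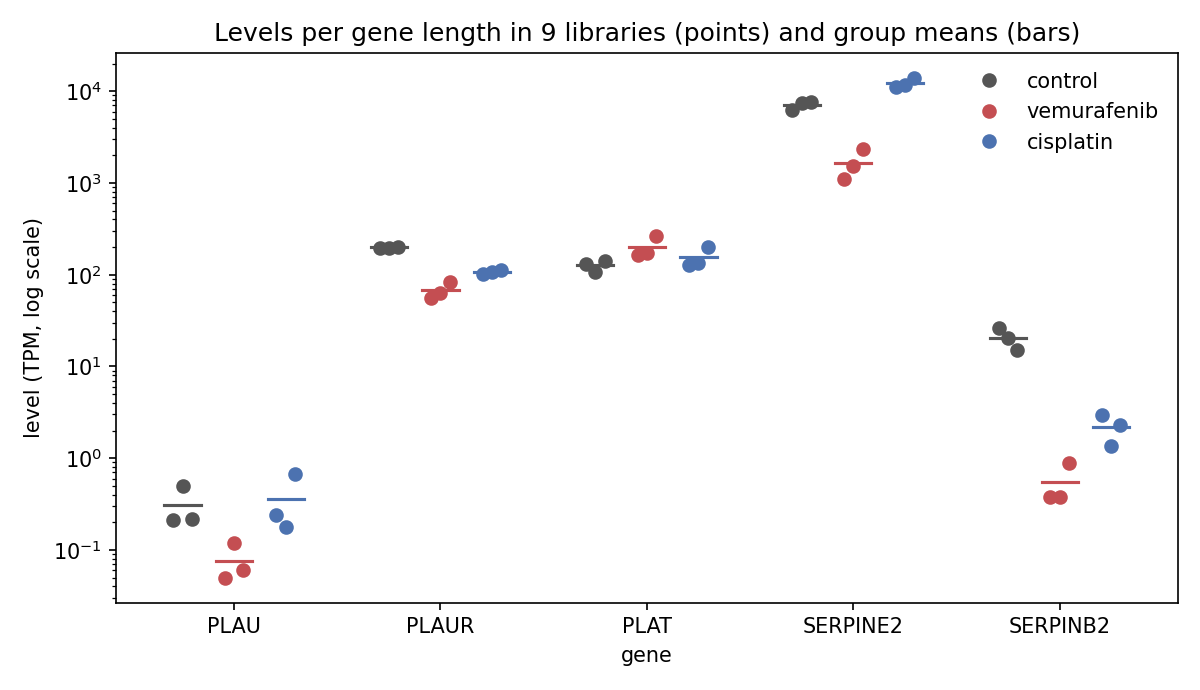
Level of each gene in TPM (vertical axis, log scale) in each of the 9 libraries (points, by group) with group means (bars). SERPINE2 lay above 1105 TPM in every library, PLAU lay at or below 0.67 TPM in every library, and PLAUR and SERPINB2 were lower in every treated library than in every control library.

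PLAUR, the receptor that holds urokinase at the cell surface, fell after both drugs. Control libraries held 196, 197 and 202 TPM, vemurafenib libraries 55.7, 63.6 and 83.2 TPM, and cisplatin libraries 102, 106 and 112 TPM. The groups did not overlap, with controls highest, cisplatin between and vemurafenib lowest, and the control and cisplatin libraries lay close together within their groups. On the scale of TMM-scaled CPM, the share of a gene in the counts of its library, the level was 146 ± 0.814 in controls, 46.1 ± 6.75 after vemurafenib and 73.8 ± 0.679 after cisplatin (SD, n = 3). The difference from control was -1.67 after vemurafenib (log2, SE 0.11, 3.17-fold lower, edgeR adjusted p = 6.03e-07). After cisplatin it was -0.99 (SE 0.11, 1.98-fold lower, adjusted p = 2.62e-05). The 1.60-fold difference between the drugs also passed (log2 -0.68, 95% confidence interval -0.92 to -0.44, adjusted p = 0.000432).

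These calls stand against a wide background. Over all 13989 genes tested, 22.0% were called higher and 22.9% lower after vemurafenib, 22.7% higher and 23.5% lower after cisplatin, and between the drugs 23.0% were higher and 20.8% lower with vemurafenib. Of called genes, 49.1% were higher after vemurafenib, and 60.0% when libraries were scaled by total counts alone, which put the median difference of all genes at 0.11 on the log2 scale. Of the 4 genes here with enough counts for the test, 1 was higher and 3 lower after vemurafenib, 1 higher and 2 lower after cisplatin, and 3 lower with vemurafenib than with cisplatin. Their median log2 difference was -1.95 after vemurafenib and -0.39 after cisplatin, where the medians of all tested genes were 0.01 and 0.00. In bulk RNA, fewer cells with a transcript and less of it per cell cannot be told apart. The PLAUR gene lies at chr19:43646095-43670169 on the minus strand (GRCh38.p14, RefSeq). The 250 bases before its start, chr19:43670170-43670419, are shown with the matches to motifs of factors known as regulators of this gene in capitals, since the levels of those factors are given further on.

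PLAUR upstream: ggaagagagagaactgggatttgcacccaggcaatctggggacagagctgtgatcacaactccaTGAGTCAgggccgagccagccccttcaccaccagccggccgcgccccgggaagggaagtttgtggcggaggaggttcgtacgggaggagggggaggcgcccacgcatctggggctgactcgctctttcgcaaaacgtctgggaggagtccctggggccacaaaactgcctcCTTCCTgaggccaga

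The capitals mark TGAGTCA, a match to the AP-1 motif TGANTCA, 186 to 180 bases before the start, and CTTCCT, the reverse strand of the ETS motif AGGAAG, 15 to 10 bases before it. Both strands were searched. Of 35116 RefSeq promoter windows of this length, 6.57% held TGANTCA and 28.7% held AGGAAG. A match describes the letters only, and binding was not measured.

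PLAU, which encodes urokinase, was close to absent in this line. Its estimated counts were 4, 9 and 4 in controls, 1, 2 and 1 after vemurafenib, and 4, 3 and 11 after cisplatin. The vemurafenib libraries lay below all others, and control and cisplatin libraries overlapped. PLAU did not reach the minimum count for the main test. From the summed counts of 4 against 17, its level after vemurafenib was 4.41-fold below control (95% interval 1.44 to 18), and from 18 against 17 the cisplatin to control ratio was 1.10 (0.536 to 2.27), intervals that cover counting error only. When no genes were left out for low counts, edgeR's adjusted p over 18392 genes was 0.0567 for vemurafenib against control, 0.901 for cisplatin against control and 0.0431 for vemurafenib against cisplatin. The PLAU gene (chr10:73908832-73917494, plus strand) overlaps the antisense gene C10orf55 over 916 exonic bases, and since no label says that strand was kept, reads of the pair cannot be told apart. The TPM ratio of PLAUR to PLAU was 393 to 933 in controls, 530 to 1387 after vemurafenib and 167 to 589 after cisplatin, so receptor transcripts far outnumbered those of its ligand in every library.

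PLAT, which encodes tissue-type plasminogen activator, made up nearly all activator transcripts. It held 132, 107 and 140 TPM in controls, 165, 173 and 262 TPM after vemurafenib, and 129, 135 and 200 TPM after cisplatin. All vemurafenib libraries lay above all controls, with replicate 3 far above the other two, and the cisplatin libraries overlapped both other groups. In CPM the level was 207 ± 26.5 in controls, 304 ± 66.0 after vemurafenib and 238 ± 53.3 after cisplatin (SD, n = 3). PLAT rose 1.47-fold after vemurafenib (log2 0.56, SE 0.18, adjusted p = 0.0279). This call was lost without vemurafenib replicate 3 (0.37, adjusted p = 0.121) and without control replicate 1 (0.61, 0.052), 2 (0.45, 0.118) or 3 (0.60, 0.055), with adjusted p from 0.0035 to 0.121 over all 18 alternatives. The lowest came from edgeR with a block by replicate number (0.54, adjusted p = 0.0035), a pairing that the labels do not state. The difference after cisplatin was 0.20 (95% interval -0.20 to 0.61, adjusted p = 0.391), and between the drugs 0.35 (-0.05 to 0.76, adjusted p = 0.141), neither past the threshold. Without cisplatin replicate 3, the difference between the drugs was 0.55 (adjusted p = 0.0356). The gene lies at chr8:42174718-42207565 on the minus strand.

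SERPINE2, the gene of protease nexin-1, was among the most abundant transcripts of untreated A375 and moved in opposite directions after the drugs. It held 6264, 7479 and 7566 TPM in controls, 1105, 1512 and 2340 TPM after vemurafenib, and 11008, 11656 and 13945 TPM after cisplatin. No libraries of different groups overlapped: every cisplatin library was above every control, and every vemurafenib library below. Ranked by TPM among 18430 genes, SERPINE2 was 7th, 4th and 3rd in the control libraries, 132nd, 88th and 55th after vemurafenib, and 4th, 2nd and 2nd after cisplatin.

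This single gene took 0.638% to 0.752% of all counts in controls, 0.124% to 0.222% after vemurafenib and 1.09% to 1.32% after cisplatin. In CPM it fell from 7395 ± 653 to 1567 ± 470 after vemurafenib (SD, n = 3), a difference of -2.24 on the log2 scale (SE 0.19, 4.72-fold lower, adjusted p = 3.66e-06). After cisplatin it rose to 11764 ± 1157 CPM, 1.59-fold above control (log2 0.67, SE 0.19, adjusted p = 0.0117). That rise missed the threshold without control replicate 1 (0.60, adjusted p = 0.054), the lowest control library, where the 18 alternatives gave adjusted p-values of 0.000313 to 0.054. Between the drugs the difference was 7.51-fold (log2 -2.91, 95% interval -3.34 to -2.47, adjusted p = 4.93e-07).

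The SERPINE2 gene lies at chr2:223975045-224039286 on the minus strand. RefSeq gives a pair of start sites for which upstream windows were read, chr2:224031479-224031728 and chr2:224038641-224038890. Neither held TGANTCA. The first held 1 match each to the ETS motif CGGAAG and the Sp1 motif GGGCGG, and the second held 2 matches to GGGCGG, motifs present in 16.5% and 42.6% of all windows.

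SERPINB2, the gene of PAI-2, showed the largest fitted change of the 4 tested genes after either drug. Its control libraries held 26.4, 20.6 and 15.1 TPM from 390, 295 and 217 counts. After vemurafenib the level was 0.38, 0.38 and 0.89 TPM from 6, 5 and 12 counts, and after cisplatin 2.94, 1.37 and 2.31 TPM from 39, 18 and 30 counts. The groups did not overlap, with the cisplatin libraries above all vemurafenib libraries and far below all controls. In CPM the level was 19.6 ± 5.75 in controls, 0.479 ± 0.225 after vemurafenib and 1.97 ± 0.740 after cisplatin (SD, n = 3).

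SERPINB2 fell by 5.33 on the log2 scale after vemurafenib (SE 0.37, 40.2-fold lower, adjusted p = 7.88e-07), the 59th largest change of 13989 genes. PLAUR, SERPINE2 and PLAT ranked 1177th, 717th and 4975th in that comparison. After cisplatin SERPINB2 fell by 3.31 (SE 0.31, 9.93-fold lower, adjusted p = 6.18e-06). With vemurafenib it was 4.04-fold below cisplatin (log2 -2.02, 95% interval -2.99 to -1.04, adjusted p = 0.00344). The low counts after vemurafenib make the size of the fold uncertain. The fitted 95% interval of the log2 difference from control was -6.14 to -4.51. Over the 18 alternatives that difference ran from -5.79 to -3.79, and that between the drugs from -2.49 to -1.03. The alternatives include limma on log2 TPM with a pseudocount of 1, which shrinks differences at levels this low.

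The gene lies at chr18:63887705-63903888 on the plus strand and shares 547 exonic bases with SERPINB10 on the same strand, which had 1 count in each group. The 250 bases before its start, chr18:63887455-63887704, are shown with matches to the same motifs and to the TATA box in capitals.

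SERPINB2 upstream: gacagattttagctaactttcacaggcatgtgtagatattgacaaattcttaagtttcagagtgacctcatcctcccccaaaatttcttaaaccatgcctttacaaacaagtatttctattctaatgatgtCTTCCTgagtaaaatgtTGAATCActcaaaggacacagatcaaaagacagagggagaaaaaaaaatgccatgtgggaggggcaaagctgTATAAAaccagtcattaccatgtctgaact

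The capitals mark CTTCCT (reverse strand of AGGAAG) 119 to 114 bases before the start, TGAATCA (a match to TGANTCA) 102 to 96 bases before it, and the TATA box TATAAA 30 to 25 bases before it, a motif found in 10.7% of windows. The sequences come from the RefSeq table of GRCh38.p14, which had windows for 4 of the 5 genes (none for PLAT). The pair of PLAU windows (chr10:73910360-73910609 and chr10:73910882-73911131) held no TGANTCA; the second held 1 match each to AGGAAG and CGGAAG and 3 to GGGCGG. None of the 6 windows held the cAMP response element TGACGTCA, present in 1.65% of all windows.

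**Figure D2:**
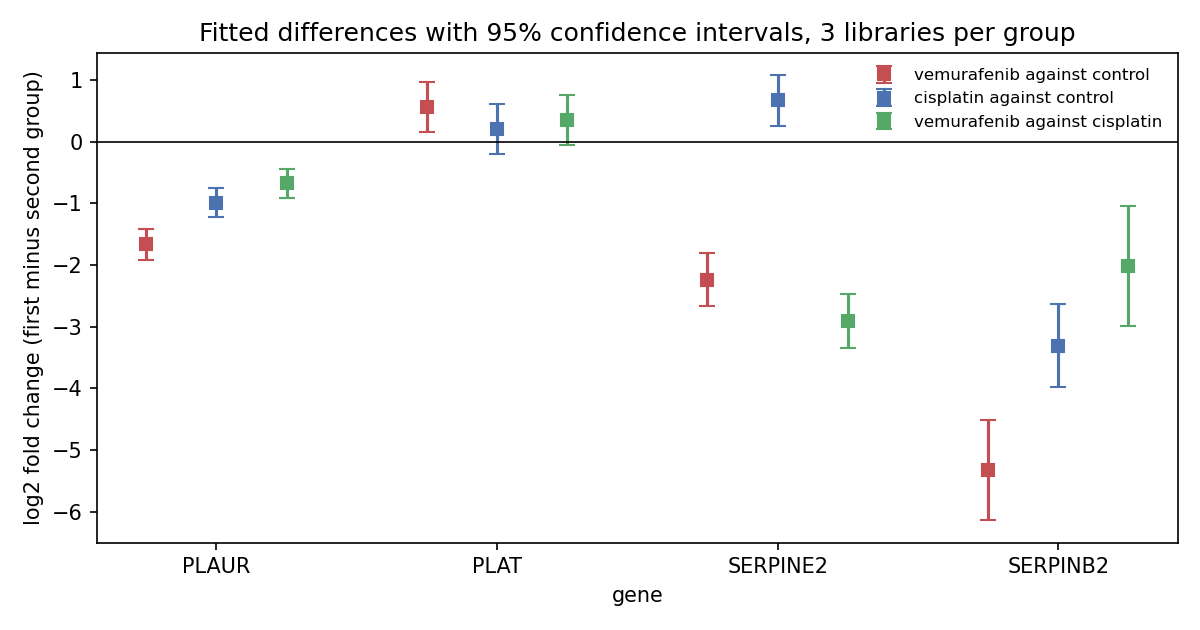
Fitted log2 fold change (squares) with 95% confidence interval (bars) of the 4 tested genes in each of the 3 comparisons (colours), 3 libraries per group. PLAUR and SERPINB2 lay below 0 in all 3 comparisons, SERPINE2 lay below 0 after vemurafenib and above 0 after cisplatin, and the intervals of PLAT crossed 0 in 2 of 3.

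The genes thus differed in pattern across groups. PLAUR and SERPINB2 were ordered control, cisplatin, vemurafenib from high to low. SERPINE2 was ordered cisplatin, control, vemurafenib. PLAT was highest after vemurafenib by its mean, although its drug groups overlapped. Within the vemurafenib group, replicate 3 held the highest TPM of PLAUR, PLAT, SERPINE2 and SERPINB2, activator and inhibitors alike. Within the cisplatin group, replicate 3 was highest for PLAU, PLAUR, PLAT and SERPINE2.

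As a description with no test, the summed TPM of the inhibitors SERPINE2 and SERPINB2 was divided by that of the activators PLAU and PLAT. The ratio was 47.5, 70.0 and 54.2 in controls, 6.69, 8.72 and 8.94 after vemurafenib, and 85.1, 86.3 and 69.6 after cisplatin. Vemurafenib libraries lay far below all others, and the lowest cisplatin library lay just under the highest control. Group means were 57.2 ± 11.6, 8.12 ± 1.24 and 80.3 ± 9.31 (SD, n = 3). SERPINE2 supplied over 99.5% of the inhibitor sum and PLAT over 99.5% of the activator sum in every library, so the ratio is close to SERPINE2 over PLAT. Transcript ratios do not measure protein or protease activity.

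**Figure D3:**
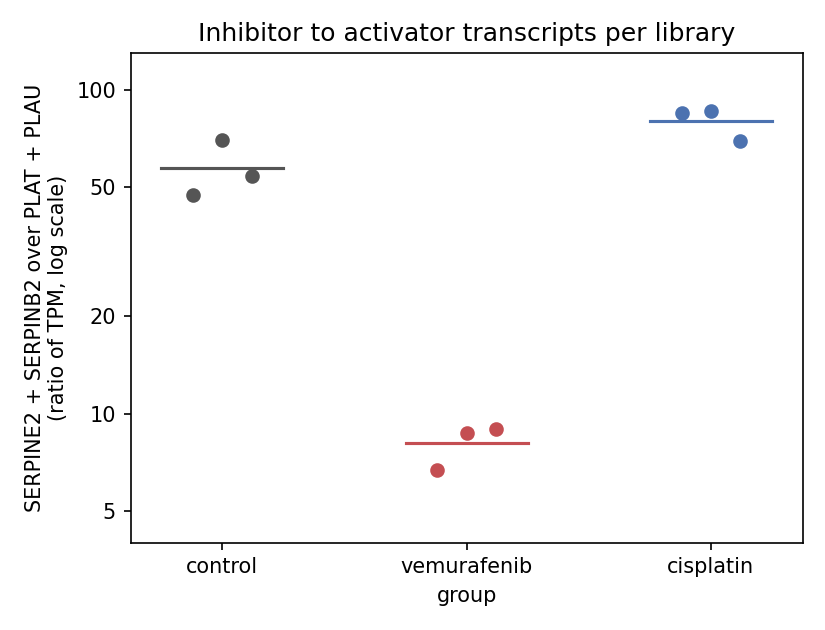
Ratio of inhibitor (SERPINE2 + SERPINB2) to activator (PLAT + PLAU) TPM per library (points; vertical axis, log scale) with group means (bars). The vemurafenib libraries lay between 6.69 and 8.94, the controls between 47.5 and 70.0 and the cisplatin libraries between 69.6 and 86.3.

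Among the other proteases and inhibitors of the plasminogen cascade, 10 of 15 had enough counts for the test. After vemurafenib 2 were called higher and 4 lower, against 22.0% and 22.9% of all tested genes, with a median log2 difference of 0.23. The 2 became 1 without control replicate 1 or 3 or any 1 cisplatin library, with DESeq2's size factors, with no count filter and in a fit of these groups alone. SERPINF2, which encodes the plasmin inhibitor alpha-2-antiplasmin, fell after vemurafenib at a low level, from 3.44 ± 0.445 to 0.526 ± 0.257 CPM (log2 -2.69, SE 0.37, adjusted p = 0.000131), with values from -3.05 to -1.50 over the alternatives. A2M, a broad protease trap, rose from 32.3 ± 13.6 to 90.2 ± 22.4 CPM (log2 1.48, SE 0.28, adjusted p = 0.00112). After cisplatin 5 of the 10 were called higher and 1 lower, against 22.7% and 23.5% of all tested genes, with a median of 0.60. The 5 became 3 without control replicate 1 or 2 or cisplatin replicate 2. A2M rose there to 211 ± 43.9 CPM (log2 2.70, adjusted p = 1.78e-05) and SERPINA5, the protein C inhibitor, rose by 0.83 (adjusted p = 0.00031). SERPINF2 was the 1 called lower (-0.96, adjusted p = 0.0278), a call lost without control replicate 2 (-0.88, adjusted p = 0.0857) or 3 (-0.92, 0.076) and without cisplatin replicate 2 (-0.87, 0.0995) or 3 (-0.76, 0.111), and with limma on log2 TPM with a pseudocount of 0.1 (-0.86, 0.0669), with values from -1.28 to -0.62 over the alternatives. With vemurafenib against cisplatin, edgeR called 0 higher and 8 lower, against 23.0% and 20.8% of all tested genes, with a median of -1.09. The count of 0 was the same at an unadjusted p under 0.05 and with DESeq2 or limma. SPINT1, a surface inhibitor of matriptase and related proteases, was among the 8 lower (-1.18, adjusted p = 0.00118). PLG, the gene of plasminogen itself, had 2, 1 and 0 counts summed over the control, vemurafenib and cisplatin libraries.

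Of the serpin family outside SERPINE2 and SERPINB2, 28 of 33 listed genes were in the table and 17 were tested, 4 of which also belong to the cascade list. After vemurafenib 3 were higher and 10 lower, with a median of -0.64, where 22.0% and 22.9% of all tested genes were called. SERPINA1, the elastase inhibitor alpha-1-antitrypsin, fell from 50.1 ± 10.1 to 4.64 ± 0.882 CPM (log2 -3.43, SE 0.18, adjusted p = 1.39e-07), and SERPINA6, which carries cortisol in blood, fell by 2.89 (adjusted p = 1.12e-05). After cisplatin 5 were higher and 4 lower, with a median of -0.13, where 22.7% and 23.5% of all tested genes were called. The 4 became 2 without control replicate 2, cisplatin replicate 2 or cisplatin replicate 3.

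SERPINA3, alpha-1-antichymotrypsin, followed the order of SERPINE2: 940 ± 129 CPM in controls, 545 ± 108 after vemurafenib (log2 -0.79, adjusted p = 0.00122) and 2092 ± 88.0 after cisplatin (log2 1.15, adjusted p = 8.39e-05). SERPINF1, which encodes PEDF, had the reverse order, with 7.41 ± 0.771 CPM in controls, 12.9 ± 3.29 after vemurafenib (log2 0.80, adjusted p = 0.00745) and 2.18 ± 0.397 after cisplatin (log2 -1.77, adjusted p = 0.000101). SERPINB7 fell by 1.21 after cisplatin (adjusted p = 0.0154), a call lost without control replicate 2 (-1.07, adjusted p = 0.064) and without cisplatin replicate 1 (-1.06, 0.0635) or 2 (-1.11, 0.0632), and with limma on log2 TPM with a pseudocount of 0.1 (-1.07, 0.0926). Between the drugs 3 serpin genes were higher and 12 lower with vemurafenib, against 23.0% and 20.8% of all tested genes. Their median was -1.04, and 1 was higher in a fit of these groups alone. SERPINA1 differed by -3.72 between the drugs (adjusted p = 4.89e-08). The vemurafenib values of SERPINA3 and SERPINF1 were picked out after they were seen.

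**Figure D4:**
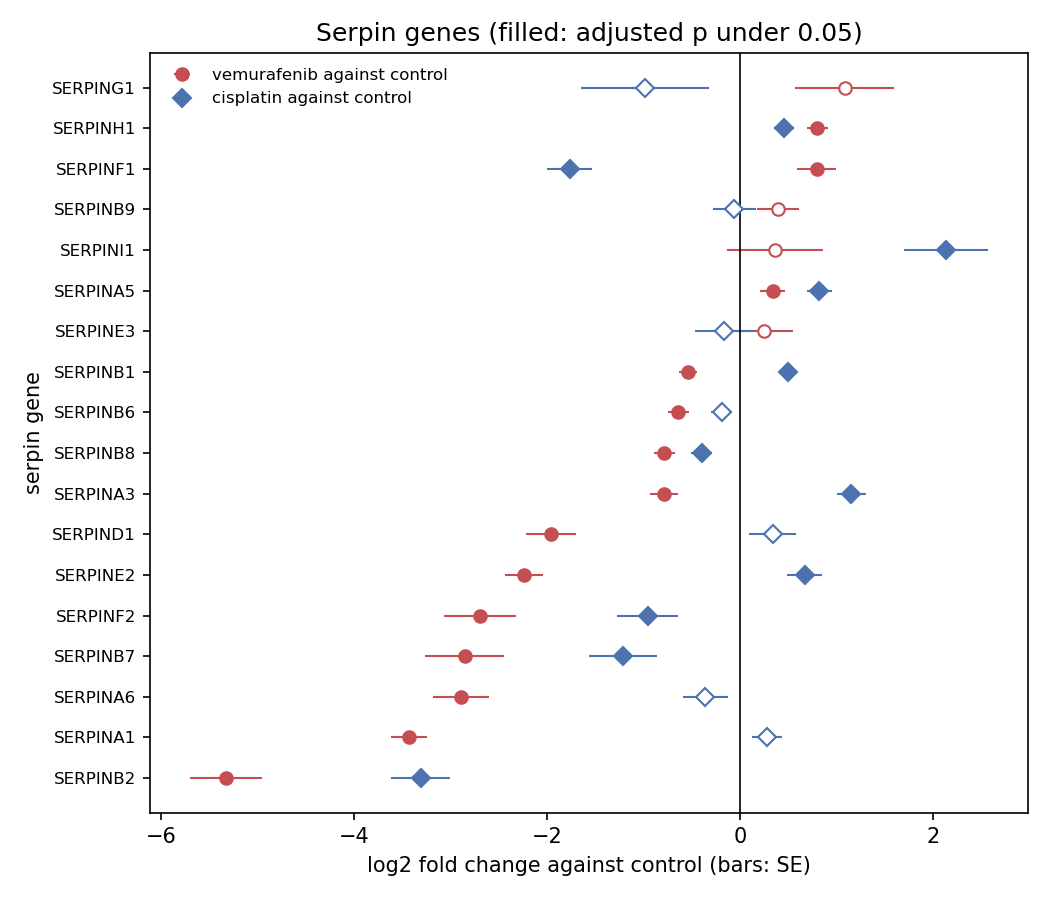
Log2 fold change against control (horizontal axis, bars are SE) of 18 tested serpin genes, 3 libraries per group. Genes that count in the list but are not reported here are not drawn. Filled symbols passed an edgeR adjusted p of 0.05. SERPINB2 lay furthest to the left in both comparisons, and SERPINE2 lay at -2.24 after vemurafenib and 0.67 after cisplatin.

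Genes listed for plasminogen binding at the cell surface or clearance of activator and inhibitor complexes were all tested (18 of 18). The list holds receptors and other proteins, such as LRPAP1 and ENO1. After vemurafenib 0 were called higher and 9 lower by edgeR, against 22.0% and 22.9% of all tested genes, with a median of -0.48. At an unadjusted p under 0.05 edgeR gave 1 higher. By adjusted p DESeq2 gave 0 and limma on log2 TPM gave 2, and 3 were higher with total-count scaling and 1 without control replicate 2. The 3 largest changes were in integrin genes, whose family includes partners of the urokinase receptor. ITGB3 fell from 653 ± 36.2 to 59.8 ± 25 CPM (log2 -3.45, SE 0.28, adjusted p = 2.2e-06), ITGB5 fell by 2.21 (adjusted p = 1.09e-07) and ITGA5 fell by 1.60 (adjusted p = 4.62e-07). The other listed integrin genes were named after their values were seen. ITGA3 fell by 1.33 (edgeR adjusted p = 1.06e-05), while ITGAV and ITGB1 did not pass (-0.30 and -0.21, adjusted p = 0.438 and 0.309). After cisplatin 5 of the 18 were higher and 8 lower, against 22.7% and 23.5% of all tested genes, with a median of 0.01. SORL1, a sorting receptor that binds the urokinase receptor, rose from 3.85 ± 1.61 to 36.2 ± 3.85 CPM (log2 3.23, adjusted p = 2.65e-06). LRPAP1, the chaperone of LRP1, rose by 1.52 (adjusted p = 4.93e-06), and ENO1, a glycolytic enzyme that binds plasminogen at the surface, fell by 1.59 (adjusted p = 4.06e-06).

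Members of this list named for their role after their values were seen gave further detail. LRP1, the endocytic receptor that clears activator and serpin complexes, was at 419 ± 50.8 CPM in controls, fell to 245 ± 50.3 after vemurafenib (log2 -0.77, adjusted p = 0.00291) and rose to 597 ± 94.8 after cisplatin (log2 0.51, adjusted p = 0.0261). The cisplatin call was lost without control replicate 1 (0.51, adjusted p = 0.0714) or 3 (0.43, 0.0985) and without cisplatin replicate 2 (0.49, 0.0733) or 3 (0.40, 0.109), and with limma on log2 TPM with a pseudocount of 0.1 (0.59, 0.0524). ANXA2 and S100A10, whose proteins form a complex that binds plasminogen and tissue-type activator, fell after cisplatin, with log2 differences of -0.76 and -1.35 (adjusted p = 0.000298 and 5.52e-06). After vemurafenib they differed from control by 0.22 and -0.25 (adjusted p = 0.157 and 0.116). ANXA2 then passed with total-count scaling (0.31, adjusted p = 0.0346) and with limma on log2 TPM with a pseudocount of 1 (0.32, 0.0197) or 0.1 (0.32, 0.0189), and S100A10 passed without vemurafenib replicate 1 (-0.38, adjusted p = 0.00261). Between the drugs 3 of the 18 were higher and 8 lower with vemurafenib, against 23.0% and 20.8% of all tested genes. The median was -0.34, and the 8 lower included SORL1 (-4.34, with -4.50 to -2.62 over the alternatives), ITGB3 (-2.49) and LRPAP1 (-1.38).

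Transcription factors of the AP-1 and ETS families and their partners, known from textbooks as regulators of PLAU and PLAUR, were also all tested (18 of 18). After vemurafenib 1 was higher and 10 lower, against 22.0% and 22.9% of all tested genes, with a median of -0.48. ETV4 fell from 330 ± 7.98 to 54.5 ± 13.6 CPM (log2 -2.60, SE 0.16, adjusted p = 3.92e-07) and FOSB fell by 2.07 (adjusted p = 0.00191). JUN, an AP-1 subunit, was the 1 that rose (1.61, adjusted p = 0.00338), and 2 were higher without vemurafenib replicate 1. After cisplatin 0 were higher by edgeR and 6 lower, against 22.7% and 23.5% of all tested genes, with a median of -0.23. The count of 0 was the same at an unadjusted p under 0.05 and with DESeq2 or limma. A fit of only these groups gave 2 higher and 10 lower, the fit without vemurafenib replicate 1 gave 1 and 10, and 1 was higher with the replicate block or without cisplatin replicate 1. ETS2, ETS1 and ETV4 fell there, with log2 differences of -1.72, -1.67 and -1.44 (adjusted p = 7.83e-06, 2.52e-05 and 2.19e-05). FOSL1, the AP-1 subunit FRA-1, was named after its values were seen: it fell by 0.69 after vemurafenib (adjusted p = 0.00312) and fell by 1.33 after cisplatin (adjusted p = 3.58e-05). Between the drugs 3 were higher and 7 lower with vemurafenib, against 23.0% and 20.8% of all tested genes. The median was -0.21, and ETS1 (2.03) and JUNB (-1.60) differed in opposite directions.

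Of 16 substrates and partners of plasmin and urokinase, all tested, 2 were higher and 11 lower after vemurafenib, with a median of -0.69. The 2 became 1 without control replicate 1. Over all tested genes the shares were 22.0% higher and 22.9% lower. THBS1, the matrix protein thrombospondin-1, rose from 229 ± 29.1 to 1012 ± 191 CPM (log2 2.14, adjusted p = 3.66e-06), and the protease-activated receptor gene F2RL1 fell by 2.79 (adjusted p = 3.48e-05). After cisplatin 4 were higher and 6 lower, against 22.7% and 23.5% of all tested genes, with a median of -0.42. FN1, the matrix protein fibronectin, fell from 1130 ± 247 to 128 ± 11.3 CPM (log2 -3.14, adjusted p = 3.89e-07), F2RL1 fell by 3.33 (adjusted p = 1.51e-05, with values from -3.60 to -2.16 over the alternatives), and HGF, a growth factor whose precursor urokinase can activate, rose by 1.95 (adjusted p = 0.000153) at a low level. Between the drugs 2 were higher and 6 lower with vemurafenib, against 23.0% and 20.8% of all tested genes. The median was -0.21, and 4 were higher without vemurafenib replicate 1. HGF, at 0.228 CPM after vemurafenib, differed by -4.39 (-4.68 to -2.18 over the alternatives), THBS1 by 2.61 and FN1 by 2.55.

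The genes nearest in profile were found by the root mean square difference of log2 CPM, each centred on its own mean over the 9 libraries, among 10653 tested genes; they describe likeness over the groups and carry no test. PLAUR was nearest to GOLGA7B (0.08), NET1 (0.12) and LASP1 (0.12). SERPINE2 was nearest to TGFA, which encodes a ligand of the EGF receptor (0.13), IGFBP7 (0.18) and ACSL3 (0.18). TGFA had 1050, 240 and 1771 CPM in control, vemurafenib and cisplatin cells, and ACSL3 lies on the same chromosome as SERPINE2, 1030 kilobases away. PLAT was nearest to RNF145 (0.16), TMEM64 (0.16) and BAG2 (0.17). SERPINB2 had looser neighbours, FERMT1 (0.50), ITGB4 (0.53) and TMEM158 (0.53). Its counts were low after vemurafenib (5 to 12 per library) and cisplatin (18 to 39), and the share of counting noise in these distances was not tested. FERMT1, which encodes an integrin activator, had 598, 15.6 and 98.7 CPM, and the integrin gene ITGB4 had 54.9, 1.20 and 2.90 CPM in the same order of groups.

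Summed levels of marker lists are given by library range in controls, after vemurafenib and after cisplatin. The summed TPM of 8 fibroblast markers was 9.33 to 13.1, 17.6 to 28.8 and 12.4 to 27.7, with 3 of 8 above 1 TPM and THY1 at 0 in the first 2 groups. That of 6 endothelial markers was 6.45 to 8.42, 2.84 to 10.9 and 19.4 to 21.8, with CDH5 at 0 in the first 2 groups, and vemurafenib and control libraries overlapped. That of 6 epithelial markers was 388 to 442, 136 to 206 and 319 to 355, with CDH1 at 0 in the first 2 groups, and was mostly KRT18 (385, 148 and 282 TPM). That of 5 blood markers was 87.8 to 126, 102 to 150 and 233 to 282, almost all from CD68 (112, 126 and 262 TPM), with HBB at 0 in control and cisplatin libraries, and vemurafenib and control libraries overlapped. The summed TPM of 12 melanocyte and melanoma markers was 2585 to 2889, 2957 to 3181 and 5211 to 5823, and its members went in different directions. DCT was at 0.0433, 125 and 0.320 TPM, S100B at 30.6, 584 and 300.0, and MITF at 15.0, 36.9 and 16.7 in control, vemurafenib and cisplatin cells, whereas CSPG4 was at 346, 53.6 and 301 and S100A1 at 718, 614 and 2900. Their part in the levels of PLAUR, PLAT, SERPINE2 and SERPINB2 was not tested.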

How the data were processed

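Total RNA of A375 cells was reverse transcribed with random hexamers and sequenced as single-strand circles, per the labels' protocols. The submitters' processing notes name HISAT2 2.0.4 and hg38. How reads were counted per gene, with which annotation and strand setting, is not given in the sources used here. Estimated counts for 18430 genes were deposited by the authors, not whole in 13.6% to 14.1% of values (tolerance 1e-06) and rounded here. TPM and FPKM, so named per the file headers, are the authors' normalized values; TPM was used for levels, ratios and alternatives, and FPKM for effective lengths and 1 check of the ratio.

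Genes passing edgeR's default filterByExpr (13989) were scaled by TMM and fitted over all 9 samples as group means (edgeR 4.0.16, R 4.3.3, 6 residual degrees of freedom). Contrasts were tested two-sided by quasi-likelihood F test with Benjamini-Hochberg adjustment over all tested genes, threshold 0.05; each SE was taken as the log2 change over the root of F. The pipeline was tested on simulated counts that gave every gene the same dispersion and changed only a small part of the genes, unlike these data. Alternatives used DESeq2 1.42.0, limma 3.58.1, other scalings and filters, a replicate block and each library left out. The genes, lists and tests were chosen with earlier results of these data known. From each list, up to 3 called genes per comparison with the largest change, a mean of 50 or more counts in the higher group's libraries and groups that did not overlap were named, besides those said to be named after their values were seen; some listed genes count in their lists and are not reported here; nearest genes needed 10 CPM in 1 group. Intervals have a 95% level. No pair of libraries was a duplicate (chi-square per degree of freedom 4.44 to 53.9). Same-numbered vemurafenib and control libraries deviated together (correlations 0.176, 0.137 and 0.185 across genes, against -0.167 to -0.021 for differently numbered ones). The deviations were centred on group means and cancel within each group, so positive same-numbered values make the others negative on average. The same-numbered pattern was seen in the data, was not tested and is not stated in the labels.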

Additional observations from a re-analysis of the deposited data

How the results depend on the processing

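Over 18 alternative settings, the calls of PLAUR and SERPINB2 in every comparison and of SERPINE2 in both vemurafenib comparisons kept direction and side of the threshold, and no tested member reversed. Leaving out 1 library at a time moved the PLAT vemurafenib difference between 0.365 and 0.685 (lost without vemurafenib replicate 3 or any control), the SERPINE2 cisplatin difference between 0.587 and 0.72 (lost without control replicate 1), and the PLAT difference between the drugs between 0.156 and 0.554; the cause was not tested. With the replicate block the last was 0.351 (adjusted p = 0.0301), the only member call the block changed. Same-numbered vemurafenib and cisplatin libraries gave correlations of 0.166, 0.013 and 0.102, and differently numbered ones -0.167 to 0.142. For cisplatin and control the same-numbered values were 0.21, 0.081 and 0.125, and the others -0.177 to 0.052. These deviations were also centred on group means, so same-numbered and other values are not independent. Pairing was not tested, so it was not taken as shown. In CPM, not per length, the inhibitor to activator ratio was 36.4, 5.13 and 50.2 in control, vemurafenib and cisplatin cells, lower because SERPINE2 (effective length 1953 bases) is shorter than PLAT (3084). Counts of all called genes stayed within 1.5 times of the reported counts in 54 of 54 comparisons with an alternative. PLAU, with 4 to 18 counts per group, has wide counting intervals.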
